A study of Mus musculus with 29 samples.

Results

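The interferon-stimulated genes described here are a list of 38 mouse genes that are known to be switched on by interferons. They were picked by name from what is known of the response, with earlier results of these data known. Of the 38, 36 were measured in both deposited expression tables and are described here, out of 17536 genes that the tables share. Mx1 and Mx2 are not analysed here. All 36 passed the filter on low values (at least 1 FPKM in at least 3 mice), as did 13174 of the 17536 genes. FPKM is the number of sequenced fragments of a gene scaled to transcript length and to the size of the library.

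RNA was sequenced from frozen subcutaneous fat of mice of both sexes that were wild type (WT) or carried a knockout of Ncoa1 (KO), the gene of a coactivator of nuclear receptors. All groups were injected intraperitoneally for 7 days, either with 0.5 mg/kg of CL316,243 (CL), which activates β3-adrenergic receptors, or with NaCl (saline). The tables hold 29 columns, taken as 27 mice: 2 saline and 4 CL wild-type females, 3 saline and 3 CL knockout females, 4 saline and 4 CL wild-type males, and 3 saline and 4 CL knockout males. The sources used here give neither the knockout allele and the cells it acts in nor the strain and age of the mice. Nothing in the labels says whether mice of a group shared a cage or litter, so p-values measure the spread between these samples.

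Interferons are secreted proteins that bind receptors on nearly all cells. The type I receptor acts through the kinases JAK1 and TYK2 on a complex that holds STAT2 and IRF9 and binds the interferon-stimulated response element in promoters. Interferon-gamma acts on a different element, called GAS. The induced genes encode RNA sensors, enzymes and GTPases that restrict viruses and other microbes, and parts of the machinery that presents antigens. In white fat, resident macrophages, endothelial cells, stromal cells and adipocytes can all answer interferon. In whole tissue, fewer cells of a type and less RNA per cell cannot be told apart.

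The letters of the interferon-stimulated response element were searched in RefSeq promoter windows of GRCm38.p6, each running from 250 bases before to 50 bases after a gene's start. A match was GAAA, any 2 bases and GAAA again, or TTTC, any 2 bases and TTTC, which is the same motif on the other strand, and matches were allowed to overlap. Windows were found for 28 of the 36 genes, and 16 of these 28 (57.1%) held at least 1 match, against 3.99% of the 27025 genes with a window. The GAS letters TTCNNNGAA, which read the same on both strands, were in 8 of the 28 (28.6%), against 9.55% of all genes. A match is a string of letters and does not show that a factor binds there. The sequences that follow are the 250 bases before the start of Isg15, Ifit1, Gbp7 and Trim30a, 5′ to 3′ on the gene's own strand, and a shorter stretch of Ifih1, whose match lies 33 bases after the start. Gbp7, Trim30a, Ifih1 and Ifit1 are the genes with a match that passed a test of the knockout or of sex, and Isg15 was added after its values were seen, because it holds 3 overlapping matches. Capitals mark the matches.
Isg15 (chr4:156200819-156201068, minus strand): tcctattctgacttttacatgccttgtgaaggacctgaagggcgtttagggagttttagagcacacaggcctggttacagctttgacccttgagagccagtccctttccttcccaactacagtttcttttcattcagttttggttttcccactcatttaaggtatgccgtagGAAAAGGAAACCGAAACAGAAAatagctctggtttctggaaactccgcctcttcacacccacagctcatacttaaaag
Ifit1 (chr19:34640639-34640888, plus strand): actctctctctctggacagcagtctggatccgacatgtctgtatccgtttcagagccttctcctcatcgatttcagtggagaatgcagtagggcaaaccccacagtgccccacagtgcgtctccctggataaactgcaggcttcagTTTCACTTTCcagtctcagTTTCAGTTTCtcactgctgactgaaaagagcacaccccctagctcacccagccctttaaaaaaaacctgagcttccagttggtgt
Gbp7 (chr3:142530086-142530335, plus strand): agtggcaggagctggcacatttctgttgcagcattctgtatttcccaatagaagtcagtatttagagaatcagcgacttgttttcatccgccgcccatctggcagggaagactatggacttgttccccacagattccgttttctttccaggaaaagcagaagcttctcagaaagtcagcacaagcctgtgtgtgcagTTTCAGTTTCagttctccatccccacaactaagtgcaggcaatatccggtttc
Trim30a (chr7:104465194-104465443, minus strand): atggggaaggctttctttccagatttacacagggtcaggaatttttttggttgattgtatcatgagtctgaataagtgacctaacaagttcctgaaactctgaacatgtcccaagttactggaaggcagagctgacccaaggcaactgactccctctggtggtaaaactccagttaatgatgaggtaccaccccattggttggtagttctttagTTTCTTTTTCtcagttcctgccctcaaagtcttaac
Ifih1, the 30 bases around its match (chr2:62646206-62646235, minus strand): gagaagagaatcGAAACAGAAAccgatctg
The Isg15 matches begin 78, 72 and 66 bases before the start, and the Ifit1 pair 104 and 85 bases before it. Gbp7 has its match 53 bases before the start and Trim30a 36 bases before the start that its window was cut at, the other of its 2 windows not being shown.

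Several of the genes lie side by side. Ifit1, Ifit2 and Ifit3 span 99.5 kb of chromosome 19 (chr19:34550550-34650009), Gbp2, Gbp3 and Gbp7 span 107.7 kb of chromosome 3 (chr3:142530336-142638008), and the antigen-processing genes Psmb8 and Tap1 span 13.9 kb of chromosome 17 (chr17:34187556-34201454). All 6 oligoadenylate synthetase genes are on chromosome 5. Near-identical neighbours can share reads: of all 50-base words in the transcripts of Oas1a, 57.6% also occur in another gene, chiefly Oas1g, and for Ifit3 the share was 51.2%, chiefly with Ifit3b. Values of these genes are less certain than those of single-copy members such as Bst2, which shared 0%.

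Ncoa1 matched the genotype labels and Ddx3y the sex labels, while Ucp1 separated the treatments in some groups only. Ncoa1 lay at 1.47 to 2.9 FPKM in the knockout columns and at 4.93 to 9.16 FPKM in the wild-type columns. Ucp1, the uncoupling protein of heat-producing adipocytes, lay at 0.29 to 3.41 FPKM in saline and at 219 to 529 FPKM in CL wild-type males, and at 0.1 to 1.0 and 11.4 to 18.4 FPKM in knockout females. It overlapped between saline and CL in wild-type females (24.9 to 223.9 and 139 to 490 FPKM, adjusted p = 0.13) and in knockout males (0.13 to 9.72 and 6.97 to 23.8 FPKM, adjusted p = 0.085). The Y-linked gene Ddx3y was at or below 0.01 FPKM in all female columns and at 9.62 FPKM or above in all male ones. Summed markers of adipocytes reached 15200 to 51200 FPKM in every column. The columns summed to 563251 to 707150 FPKM and held 11499 to 12632 genes at 1 FPKM or more. Absolute depth is unknown. A replicate number occurs in both tables for saline wild-type females (replicate 3) and for saline knockout males (replicate 3). These columns were averaged as 1 mouse, but they may come from different mice: summed mammary epithelium markers were 240 FPKM in one column of the female and 43800 FPKM in the other, and summed macrophage markers 943 and 3370 FPKM in those of the male. Skeletal muscle markers summed to 50400 FPKM in saline knockout female replicate 2, one of 4 libraries with the muscle actin gene Acta1 above 200 FPKM (the others being saline knockout male replicate 1, CL knockout male replicate 4 and CL wild-type male replicate 4), called muscle-rich here.

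Transcription factors and sensors of the response were detected in every column. Irf7, a factor that drives interferon production and is itself induced, had a median of 56.5 FPKM over the 29 columns. Irf1 stood at 39.98, Irf9 at 17.4 and Stat2 at 10.4 FPKM by the same measure. The RNA sensors Ifih1 (MDA5) and Dhx58 (LGP2) had medians of 8.63 and 8.35 FPKM, and Zbp1, a sensor of Z-form nucleic acids, 25.0 FPKM. Ifi27l2a, a small hydrophobic protein induced by interferon, was far above every other member, with a median of 4175 FPKM. The next was Bst2 (tetherin, which holds virus particles on the cell surface), at 134 FPKM.

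The spread between columns differed by role. The ratio of the highest to the lowest column had a median of 6.61 over the 36 genes, against 2.67 over the 12645 tested genes with no value at 0. It was 8.35 to 37.8 for genes of the oligoadenylate synthetase family, whose active enzymes make a messenger that activates the RNA-cutting enzyme RNase L. The ratios of Oas1g (37.8) and Oas3 (29.0) rest on lowest columns of 0.46 and 0.34 FPKM. The ratio was 9.4 to 21.7 for the IFIT genes, whose products bind viral RNA, and 8.18 to 15.5 for Isg15, Usp18 and Trim30a. Isg15 encodes a ubiquitin-like modifier and Usp18 the enzyme that removes it. These ratios lean on saline knockout female replicate 3: without it they were 5.47 to 17.4 for the oligoadenylate synthetase genes, 5.24 to 9.26 for the IFIT genes and 4.85 to 9.02 for Isg15, Usp18 and Trim30a, and the median was 4.95 over the 36 genes and 2.64 over all genes. Over all columns the ratio was lower for Psmb8 and Tap1 (3.47 and 3.39), for Gbp2 (2.43) and for Irf1 (2.0). Over the 16 genes with a promoter match the median ratio was 6.4, and over the 12 without it was 4.0 (5.01 and 3.73 without that mouse), given as a description.

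**Figure D1:**
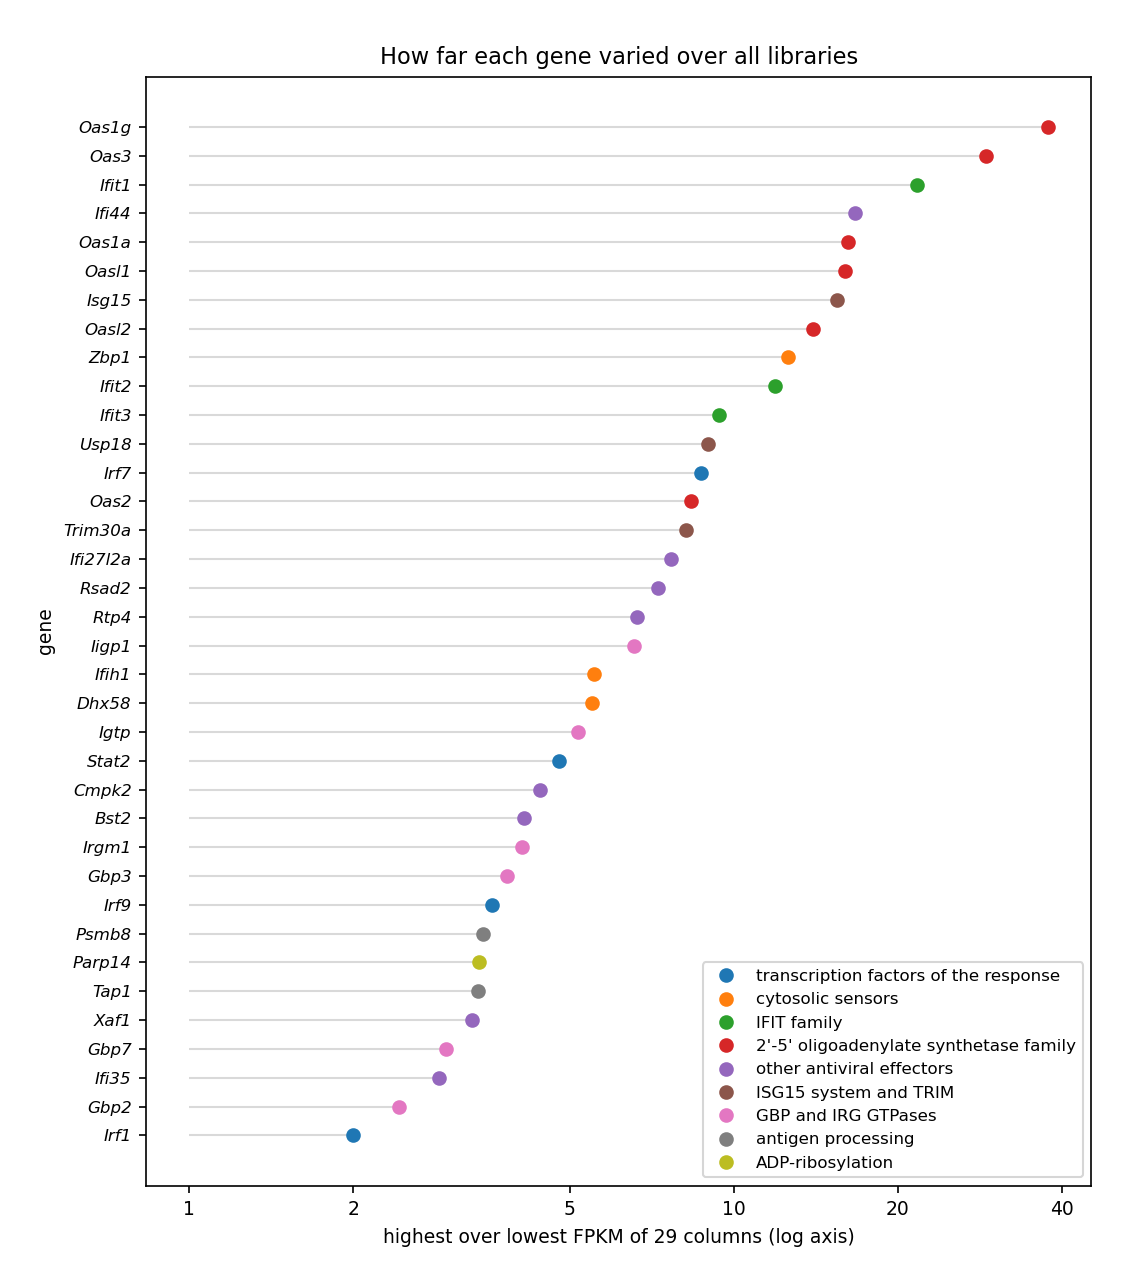
The ratio of the highest to the lowest FPKM over 29 columns for each of the 36 genes, on a log axis, coloured by role. Oas1g reaches 37.8 and Irf1 2.0, and the oligoadenylate synthetase and IFIT genes crowd the upper part of the plot.

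Single mice stood high in most members at once. Saline knockout female replicate 3 was the highest of its group in 33 of the 36 genes, while it was the highest of its group in 35.6% of all genes tested. It was the highest of all 29 columns in 28 of the 36, against 10.2% of all genes. Its Isg15 was 175 FPKM, against 23.2 and 31.4 FPKM in the other 2 saline knockout females, its Ifit1 55.0 against 7.08 and 9.71 FPKM, and its Irf7 206 against 58.4 and 61.9 FPKM. The gap differed by role. The ratio to the mean of its group mates was 4.37 to 6.55 for the IFIT genes and 2.43 to 5.41 for the oligoadenylate synthetase genes. It was 1.66 to 2.77 for the GTPases of the GBP and IRG families and 0.929 to 1.03 for Psmb8 and Tap1. For these 2 antigen-processing genes the mates lay far apart, on either side of this mouse. Psmb8 was at 116 FPKM, against 67.0 and 157 FPKM, and Tap1 at 38.5 FPKM, against 20.2 and 62.7 FPKM. This mouse also had low ratios for Irf1 (0.86) and Ifi27l2a (1.24). Its 12 macrophage markers summed to 3210 FPKM, against 2010 and 1870 FPKM in its group mates, and its T cell markers to 20.9 FPKM, against 517 and 7.19 FPKM; the part of these cells in its values was not tested.

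The same held to a lesser degree in other groups. CL wild-type male replicate 1 was the highest of its group in 33 of the 36 genes (26.8% of all genes). Its ratio to its mates was 2.41 to 2.69 for the IFIT genes and up to 6.07 in the oligoadenylate synthetase family, for Oasl1. Its Oasl1 was 16.2 FPKM, against 2.71, 1.71 and 3.59 FPKM in the other 3 mice. Saline wild-type female replicate 1 was the highest of its group in 28 of the 36 genes (22.3% of all genes), with Isg15 at 102 FPKM beside 42.5 and 42.8 FPKM in the columns of replicate 3. CL wild-type female replicate 1 was the highest in 31 (40.2% of all genes), saline wild-type male replicate 4 in 28 (38%), and saline knockout male replicate 2 in 26 (15.6%). Of the interferon genes, 3 had values and were at or near 0: Ifnb1 was at 0 in 22 of the 24 columns that list it, Ifne in 27 of 29, and Ifng in 6 of 29 with a highest value of 0.74 FPKM.

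**Figure D2:**
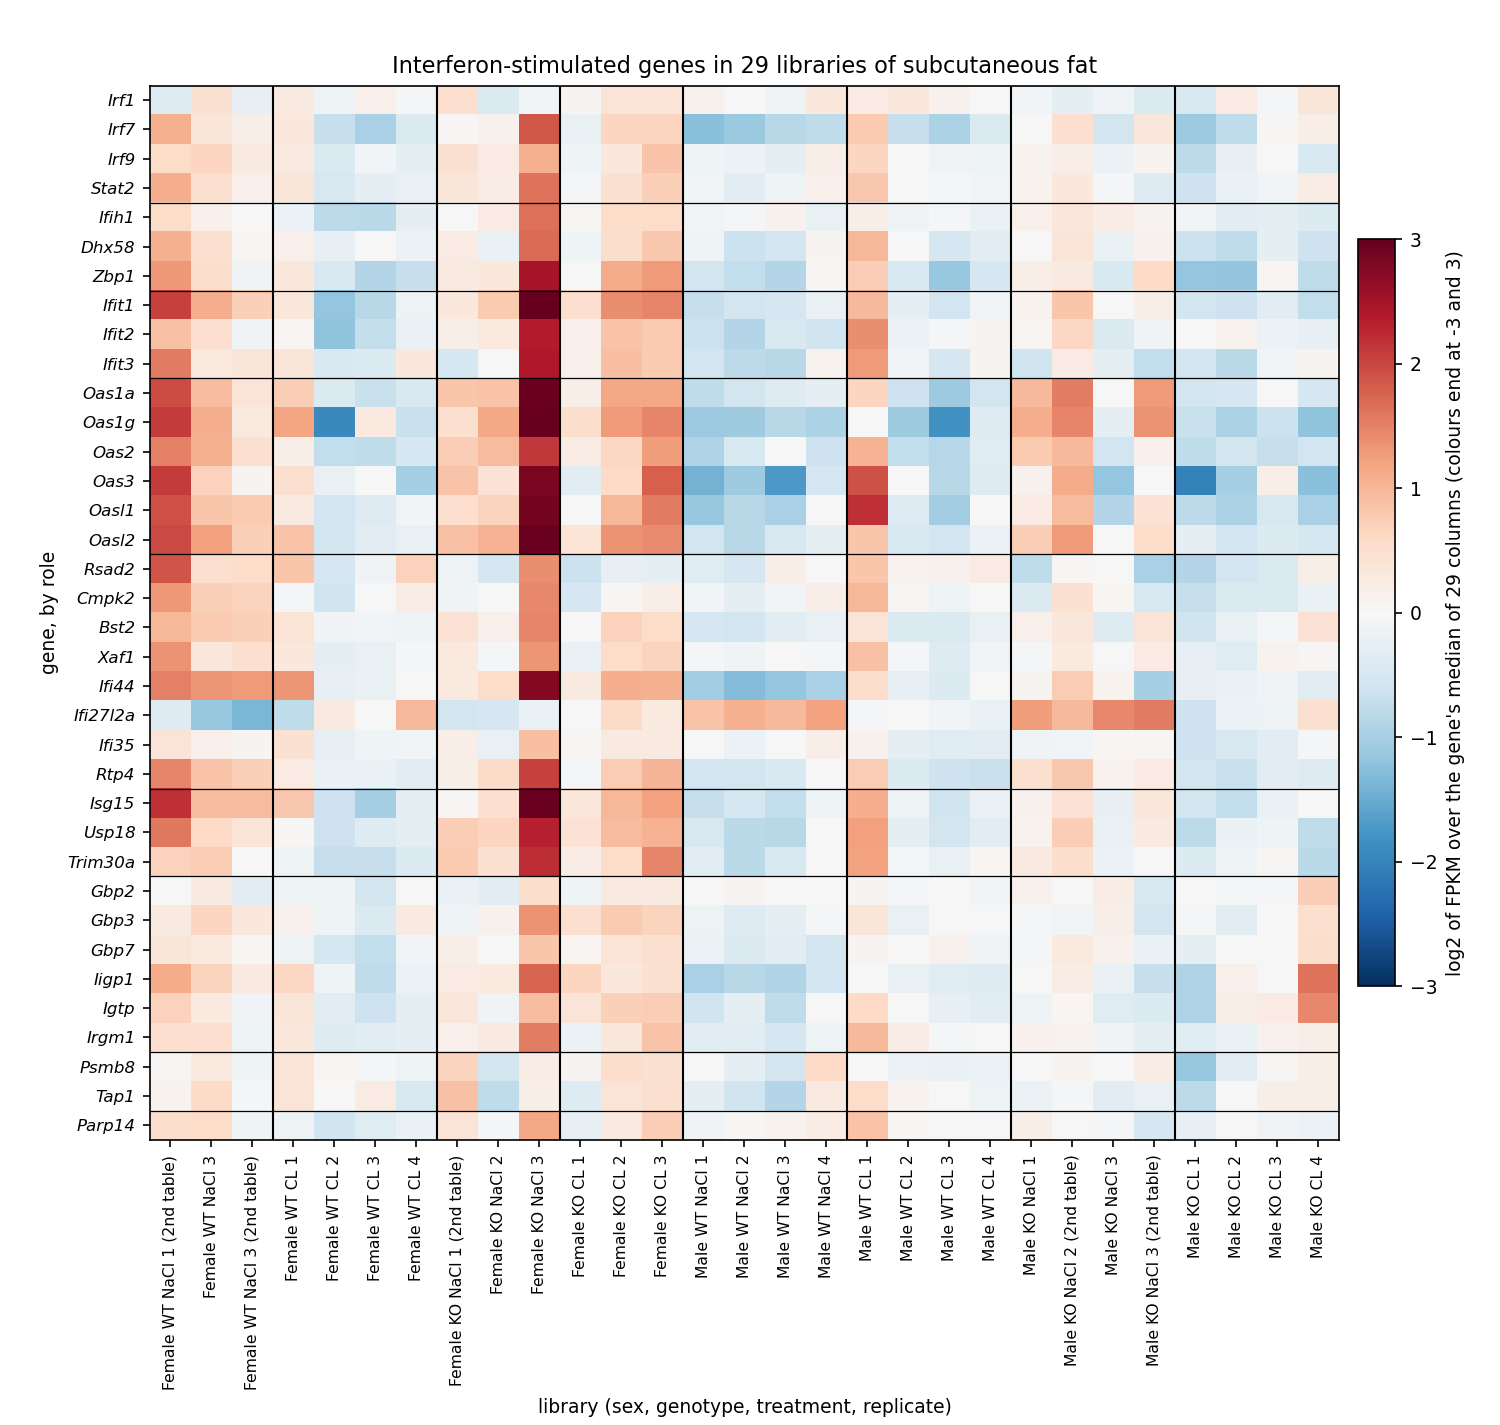
FPKM of the 36 genes in 29 columns, as log2 of the value over the gene's median, with the groups separated by vertical lines and the roles by horizontal lines. The column of saline knockout female replicate 3 is red in most rows and pale in those of Irf1, Ifi27l2a, Psmb8 and Tap1.

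The CL difference of Ifi27l2a (chr12:103433873-103443680) had the opposite sign to that of most other members, except in knockout males. There 29 of the 36 genes had a negative difference, Ifi27l2a among them. In saline wild-type males it stood at 7517, 8673, 8174 and 9652 FPKM, and in CL wild-type males at 4068, 4122, 3937 and 3642 FPKM. All CL males lay below all saline males, and the gene fell by 1.10 ± 0.28 (log2 of FPKM + 1, SE; adjusted p = 0.012; 0.11 under quantile normalization). In the same comparison 4 of 6 stromal and 3 of 12 macrophage markers fell, with stromal sums of 1920 to 2460 FPKM under saline and 1070 to 1320 FPKM under CL and macrophage sums of 914 to 1280 and 505 to 793 FPKM; their part was not tested. In knockout males the saline columns held 9993 (replicate 1), 8229 (replicate 2), 11413 and 12339 FPKM (both columns of replicate 3), and the CL mice 2721, 3677, 3784 and 5788 FPKM. Again the groups did not overlap, and the fall was 1.39 ± 0.35 (adjusted p = 0.018). That call was lost without saline knockout male replicate 1 (adjusted p = 0.11) or replicate 3 (adjusted p = 0.066), without the 4 muscle-rich libraries (adjusted p = 0.099), under quantile normalization (adjusted p = 0.17) and with only the groups compared (adjusted p = 0.22).

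Females did not show that fall. Saline wild-type females had Ifi27l2a at 3201 FPKM in replicate 1 and at 1898 and 1606 FPKM in the columns of replicate 3, and CL wild-type females at 2474, 5008, 4175 and 8142 FPKM. The groups overlapped, and the log2 difference was 0.91 ± 0.43 (adjusted p = 0.22). In knockout females it stood at 2851, 2953 and 3586 FPKM under saline and at 4206, 6232 and 5137 FPKM under CL. These groups did not overlap, but the log2 difference of 0.71 ± 0.34 did not pass (adjusted p = 0.23). The test of the difference between the sexes, the CL difference in females minus that in males averaged over both genotypes, gave 2.05 ± 0.33 (adjusted p = 0.0098). This test was added after the values were seen, and 0.38% of all genes passed it, as did 1 of the 36 members, Ifi27l2a. The next members by p were Irgm1 (log2 difference -0.74, adjusted p = 0.31) and Ifi44 (-0.90, adjusted p = 0.32). Within a single genotype the difference was 2.01 ± 0.51 in the wild type (adjusted p = 0.26) and 2.09 ± 0.44 in the knockout (adjusted p = 0.10). The call averaged over both genotypes was lost without saline wild-type female replicate 3 (adjusted p = 0.061) and under quantile normalization (adjusted p = 0.10).

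**Figure D3:**
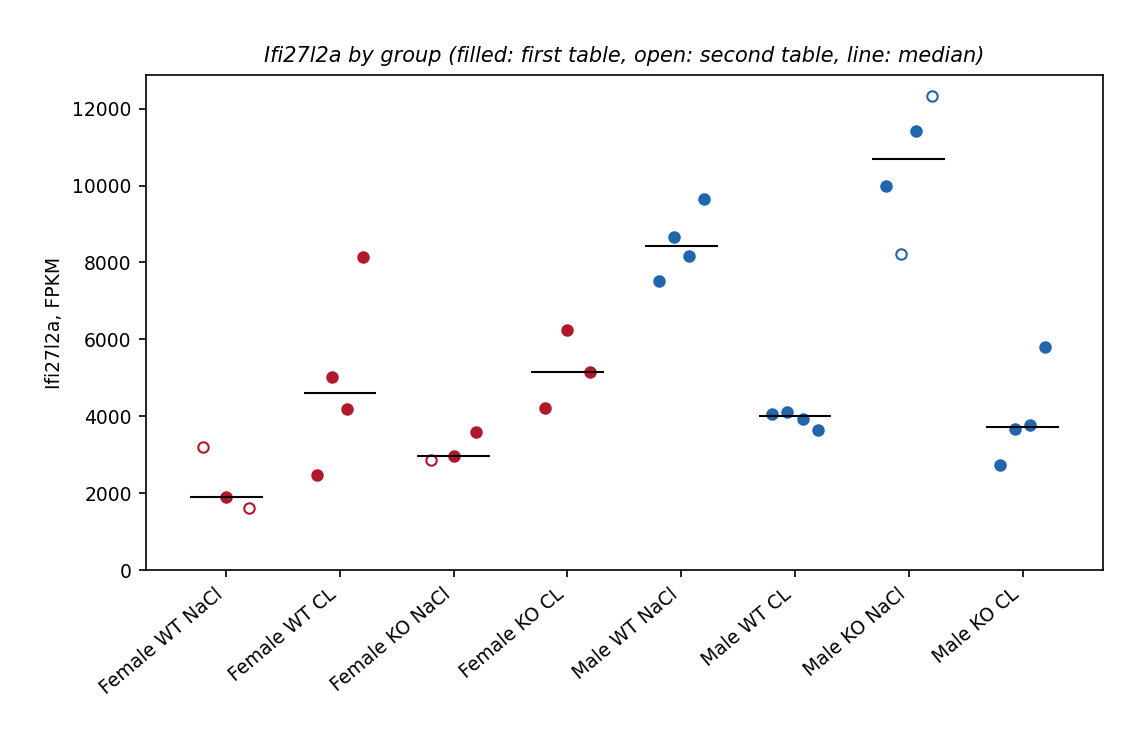
Ifi27l2a in FPKM by group, on a linear axis from 0, with 1 point per column (open for the second table) and a line at the median of the columns. Saline males lie at 7517 to 12339 FPKM, above all CL males at 2721 to 5788 FPKM and above all saline females at 1606 to 3586 FPKM.

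Saline against CL was compared for all members within each sex and genotype. In wild-type females the levels were lower under CL for 32 of the 36 genes, while 46.0% of all genes had higher ones. The median log2 difference was -0.93 against -0.04 over all genes. Yet 0 of 36 passed in limma at an adjusted p below 0.05, where 3.56% of all genes passed. At an unadjusted p below 0.05 there were 15 members, and 22.0% of all genes. Isg15 stood at 39.7, 14.7, 11.3 and 18.5 FPKM in the CL mice, all below the saline columns given above, and its log2 difference was -2.13 ± 0.73 (adjusted p = 0.098). Oas2 was at 16.8 FPKM in saline replicate 1, at 12.3 and 8.23 FPKM in the columns of replicate 3, and at 6.67, 3.54, 3.48 and 4.11 FPKM under CL. Its groups did not overlap either, and the log2 difference was -1.55 ± 0.52 (adjusted p = 0.092). The third by p was Ifit1, at -1.97 ± 0.67 (adjusted p = 0.095). In 14 of the 36 genes the groups shared no value, all with the lower values under CL, as in 18.7% of all genes in either direction.

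By role, the log2 difference in wild-type females ranged from -1.61 to -0.85 for the oligoadenylate synthetase genes, from -1.97 to -1.04 for the IFIT genes and from -0.997 to -0.31 for the GBP and IRG GTPases. It was 0.33 and 0.34 for Tap1 and Psmb8. The saline group of wild-type females held 2 mice, 1 of them the mouse with high values described above. In the same comparison 2 of the 12 macrophage markers fell. Their sums were 622 to 1930 FPKM under saline and 625 to 848 FPKM under CL. Of the mammary epithelium markers tested 3 of 8 fell (sums over 9 markers of 240 to 43800 and 133 to 769 FPKM). Of the stromal markers 2 of 6 fell (sums of 1090 to 2940 and 664 to 1250 FPKM), and 1 of 8 adipocyte markers rose. At an unadjusted p below 0.05 in limma there were 11 of 12 macrophage markers (median log2 difference -1.115) and 5 of 6 stromal ones (-0.921). By the same measure there were 3 of 8 mammary (-1.201) and 2 of 8 adipocyte markers (0.454). The part of these cells was not tested. With no table covariate 3 members passed, where 11.8% of all genes did. With every column as a mouse 6 passed (15.7% of all genes did), and with only the first-table column of repeated names 4 (17.0%).

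In knockout females 0 of 36 members passed in limma, where 7.42% of all genes passed, and 0 had an unadjusted p below 0.05 (21.6% of all genes). The median log2 difference was -0.35 against -0.02 over all genes. After Ifi27l2a, the smallest p belonged to Irf1 at 0.35 ± 0.22 (adjusted p = 0.38) and Oas2 at -0.60 ± 0.41 (adjusted p = 0.45). Oas2 stood at 9.74, 11.4 and 25.7 FPKM under saline and at 6.87, 9.05 and 13.9 FPKM under CL, with groups that overlapped. The saline group held replicate 3, high in most members, and the muscle-rich replicate 2. In this comparison 3 of 8 adipocyte markers rose and 1 of 12 macrophage markers fell. At an unadjusted p below 0.05 in limma there were 9 of 9 skeletal muscle (median log2 difference -5.06) and 4 of 6 stromal markers (-0.693). By the same measure there were 3 of 12 macrophage (-0.745) and 4 of 8 adipocyte markers (0.585). The part of these cells was not tested. The test of whether the CL difference differed between knockout and wild-type females gave 0 of 36 members in limma (0.0228% of all genes) and 1 at an unadjusted p below 0.05 (4.77% of all genes), Gbp3 (0.77 ± 0.37, adjusted p = 0.93). Ifit1 was at 1.51 ± 0.76 and Isg15 at 1.65 ± 0.84, each with an adjusted p of 0.93.

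In wild-type males 32 of the 36 genes had higher mean levels under CL, as had 42.6% of all genes. The median log2 difference was 0.29 against -0.05 over all genes. Of the 36, 1 fell, Ifi27l2a, and 0 rose, where 11.3% of all genes passed in either direction. At an unadjusted p below 0.05 there were 3 members (8.33%), against 24.4% of all genes. Ifit2 stood at 2.95, 2.53, 3.37 and 3.06 FPKM under saline and at 12.2, 4.12, 4.55 and 4.95 FPKM under CL, without overlap, and its log2 difference of 0.79 ± 0.35 did not pass (adjusted p = 0.16). Irgm1, a GTPase involved in autophagy, was at 0.57 ± 0.26 (adjusted p = 0.17). In 6 of the 36 genes the groups shared no value (25.6% of all genes), 5 of them higher under CL. CL replicate 1 was the highest mouse of its group in 33 genes, as given above. Using only the groups compared, 4 members passed, where 20.0% of all genes did, and with quantile normalization 0 (11.0% of all genes).

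In knockout males 29 of the 36 had lower mean levels under CL, while 50.7% of all genes had higher ones. The median log2 difference was -0.38 against 0.01 over all genes. Of the 36, 1 passed, Ifi27l2a, where 7.25% of all genes passed, and 7 had an unadjusted p below 0.05 (19.4%, against 22.4% of all genes). Oas1g stood at 3.76 (replicate 1), 4.88 (replicate 2), 1.48 and 4.49 FPKM (both columns of replicate 3) under saline and at 1.12, 0.91, 1.13 and 0.77 FPKM under CL. The groups did not overlap, and the log2 difference was -1.46 ± 0.49 (adjusted p = 0.079). Oas1a followed at -1.40 ± 0.52 (adjusted p = 0.11). In 7 of the 36 genes the groups shared no value (18.3% of all genes), all lower under CL. In the same comparison 11 of 12 macrophage markers fell, from sums of 943 to 3370 FPKM to sums of 436 to 906 FPKM, and 5 of 6 stromal markers fell; their part was not tested.

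The sex and genotype tests of the CL response gave few calls. Between knockout and wild-type males, 0 of 36 members differed in their CL response in limma (0.0531% of all genes), with 7 at an unadjusted p below 0.05 (19.4%, against 12.0% of all genes) and Oasl2 first at -1.68 ± 0.63 (adjusted p = 0.32), then Oas1g at -1.58 ± 0.63 and Oas2 at -1.35 ± 0.54 (adjusted p = 0.34 for both). Between females and males, 0 of 36 passed in the wild type (0.0228% of all genes), although 25 of the 36 had an unadjusted p below 0.05, against 9.2% of all genes. Isg15 was at -2.67 ± 0.87 and Ifit1 at -2.40 ± 0.80, each with an adjusted p of 0.42. In the knockout 0 of 36 passed (0.0304% of all genes) and 1 had an unadjusted p below 0.05 (10.1% of all genes), Ifi27l2a; the next were Oas1g at 0.81 ± 0.63 (adjusted p = 0.70) and Psmb8 at 0.52 ± 0.40 (adjusted p = 0.69).

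**Figure D4:**
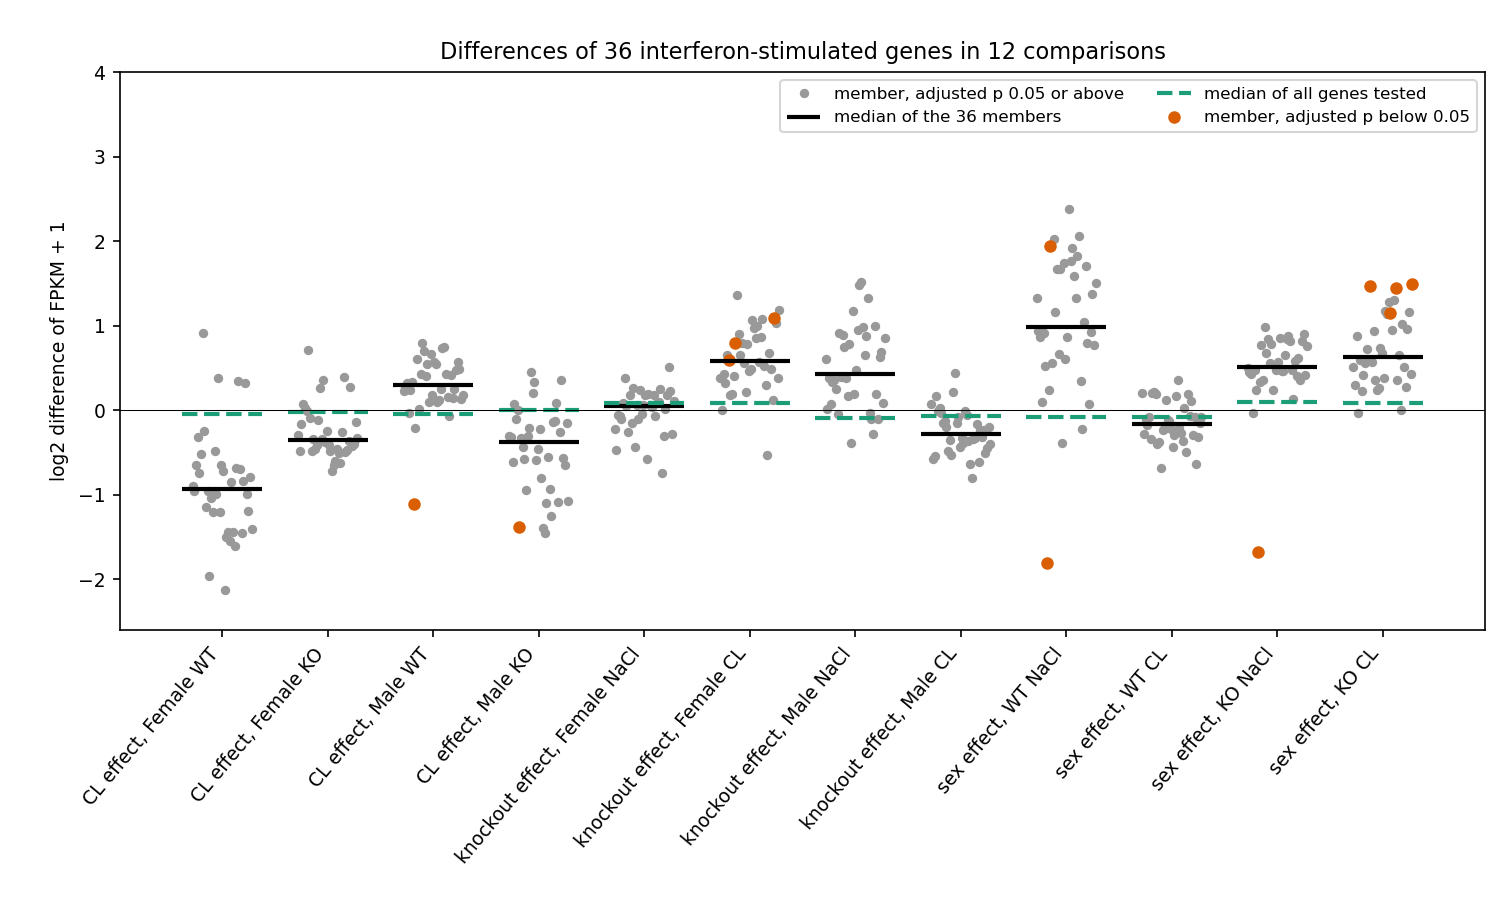
The log2 difference of FPKM + 1 for each of the 36 genes in 12 comparisons (CL minus saline, knockout minus wild type, female minus male), with black lines at the median of the 36, dashed green lines at the median of all genes tested and orange points for genes with an adjusted p below 0.05. The median of the 36 is -0.93 for CL in wild-type females and 0.99 for females against males in saline wild-type mice, and Ifi27l2a is the orange point below 0 in 4 comparisons.

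The knockout was compared with the wild type within each sex and treatment. In CL females 3 of the 36 members (8.33%) rose in the knockout and 0 fell, where 12.6% of all genes passed in either direction. A positive log2 difference was found for 35 of the 36 and for 61.3% of all genes, with a median of 0.58 against 0.09 over all genes. Gbp7, a guanylate-binding protein, stood at 6.21, 4.81, 4.13 and 6.5 FPKM in wild-type and at 7.14, 9.1 and 9.65 FPKM in knockout mice, and rose by 0.59 ± 0.18 (adjusted p = 0.034). Ifih1 stood at 7.67, 4.99, 4.9 and 7.15 FPKM and at 8.89, 12.7 and 12.7 FPKM, and rose by 0.80 ± 0.24 (adjusted p = 0.034). Trim30a, a TRIM-family protein that restrains innate signalling, stood at 6.55, 4.49, 4.53 and 5.46 FPKM and at 8.45, 10.7 and 20.0 FPKM, and rose by 1.09 ± 0.35 (adjusted p = 0.043).

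None of these 3 had overlapping groups, and the same held for 9 of the 36 genes, all higher in the knockout, where 22.6% of all genes had groups without overlap. The next by p were Gbp3 at 0.66 ± 0.23 (adjusted p = 0.058) and Ifit1 at 1.36 ± 0.47 (adjusted p = 0.059). In the same comparison 9 of 12 macrophage markers rose, with sums of 625 to 848 FPKM in the wild type and 1010 to 1700 FPKM in the knockout, and 5 of 6 stromal markers rose; their part was not tested. The count fell to 0 under quantile normalization (under which 553 genes rose and 551 fell, against 1187 and 478 without it) and ranged from 0 to 6 when single mice were left out: Gbp7, Ifih1 and Trim30a each lost the call without knockout replicate 2 or 3 or wild-type replicate 2 or 3.

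In saline females 0 of 36 members passed in limma (0.509% of all genes) and 0 had an unadjusted p below 0.05 (9.25% of all genes). The smallest p belonged to Rsad2 (viperin, an enzyme that makes a chain-terminating nucleotide), at -0.74 ± 0.45 (adjusted p = 0.65). It stood at 17.7 FPKM in wild-type replicate 1, at 6.71 and 7.02 FPKM in the columns of replicate 3, and at 4.33, 3.39 and 12.6 FPKM in the knockout mice, with overlap. Cmpk2, a mitochondrial nucleotide kinase encoded next to Rsad2, was at -0.48 ± 0.38 (adjusted p = 0.74) and Trim30a at 0.52 ± 0.45 (adjusted p = 0.77). In CL males 0 of 36 passed in limma (1.94% of all genes), 1 had an unadjusted p below 0.05, against 14.0% of all genes (Cmpk2, -0.57 ± 0.27, adjusted p = 0.35), and Irf9 was at -0.44 ± 0.21 (adjusted p = 0.36) and Rsad2 at -0.61 ± 0.32 (adjusted p = 0.42).

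In saline males 30 of the 36 had a positive log2 difference, knockout minus wild type, with a median of 0.43 against -0.09 over all genes, and 0 of 36 passed in limma, where 7.34% of all genes passed. At an unadjusted p below 0.05 there were 7 (19.4%), against 25.8% of all genes. Oas1g stood at 0.83, 0.85, 1.0 and 0.91 FPKM in the wild type, below all knockout columns given above, and its log2 difference was 1.51 ± 0.49 (adjusted p = 0.065). Oas1a was at 1.48 ± 0.52 (adjusted p = 0.082) and Oasl2 at 1.33 ± 0.49 (adjusted p = 0.097). Of the 12 macrophage markers 6 rose, with sums of 914 to 1280 FPKM in the wild type and 943 to 3370 FPKM in the knockout. Of the stromal markers 3 of 6 rose, while 2 of 8 adipocyte and 1 of 6 endothelial markers fell. At an unadjusted p below 0.05 in limma, 9 of 9 skeletal muscle, 7 of 7 B cell and 6 of 8 T cell markers differed. Their median log2 differences were 6.23, -3.48 and -3.16. The part of these cells was not tested. Without the table covariate 2 members passed, where 11.4% of all genes did.

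Females were compared with males within each genotype and treatment. In saline wild-type mice 33 of the 36 had a positive log2 difference, female minus male, as had 39.9% of all genes. The median was 0.99 against -0.08 over all genes. Of the 36, 1 was higher and 1 lower in females, where 3.34% of all genes passed, and 21 had an unadjusted p below 0.05, against 16.2% of all genes. Ifi44 (chr3:151730922-151749910), an interferon-induced cytoplasmic protein, stood at 0.91, 0.76, 0.83 and 0.96 FPKM in males, at 5.31 FPKM in female replicate 1 and at 4.65 and 4.51 FPKM in the columns of replicate 3. All females lay above all males, and the difference was 1.94 ± 0.49 (adjusted p = 0.029). Ifi27l2a was lower in females, by the values above, at -1.81 ± 0.43 (adjusted p = 0.018).

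Bst2 stood at 94.5, 90.9, 107 and 115 FPKM in saline wild-type males, at 270 FPKM in female replicate 1 and at 232 and 222 FPKM in the columns of replicate 3. The sexes did not overlap, and the log2 difference of 1.33 ± 0.39 did not pass (adjusted p = 0.063). In 23 of the 36 genes the sexes shared no value, 22 of them higher in females, where 26.2% of all genes had groups without overlap. The calls rest on 2 females: Ifi44 lost its call without replicate 1 or replicate 3 (adjusted p = 0.12 for both) or without male replicate 2 or 3 (0.058 and 0.053), and Ifi27l2a without female replicate 3 (adjusted p = 0.34) and under quantile normalization (0.052). The count was 13 with no table covariate, where 9.94% of all genes passed. In the same comparison 7 of 8 mammary epithelium markers tested were higher in females. Sums over 9 markers were 240 to 43800 FPKM against 0.59 to 1.38 FPKM in males, and their part was not tested.

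In CL wild-type mice 0 of 36 members differed between the sexes in limma, where 17.9% of all genes did, and 1 had an unadjusted p below 0.05, against 33.2% of all genes. The median log2 difference was -0.17 against -0.08 over all genes. Parp14, an ADP-ribosyltransferase, stood at 6.73, 4.98, 5.85 and 6.56 FPKM in females and at 13.6, 7.91, 7.58 and 7.54 FPKM in males, without overlap, and its log2 difference was -0.50 ± 0.21 (adjusted p = 0.096). Gbp7 at -0.34 ± 0.17 (adjusted p = 0.16) and Trim30a at -0.64 ± 0.32 (adjusted p = 0.17) came next.

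In saline knockout mice 34 of the 36 had a positive log2 difference, as had 63.6% of all genes. The median was 0.51 against 0.10 over all genes. In limma 1 of 36 passed, Ifi27l2a, which was lower in females by 1.68 ± 0.33 on the log2 scale. Its fitted difference was -1.68 (adjusted p = 0.002, and 0.075 without female replicate 1). Of all genes 7.77% passed. Usp18 stood at 14.2, 13.3 and 42.9 FPKM in females and at 9.08 (replicate 1), 14.2 (replicate 2), 7.24 and 10.2 FPKM (both columns of replicate 3) in males. Its groups overlapped, and the log2 difference was 0.91 ± 0.41 (adjusted p = 0.20). Trim30a was at 0.82 ± 0.38 (adjusted p = 0.21). In the same comparison 5 of 8 mammary epithelium markers were higher and 6 of 8 adipocyte markers lower in females; their part was not tested. Quantile normalization moved the median of all genes from 0.10 to -0.06 here (589 genes higher and 435 lower became 386 and 719), and from 0.09 to -0.04 in CL knockout mice (1110 and 341 became 742 and 805).

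In CL knockout mice 35 of the 36 had a positive log2 difference, female minus male, as had 63.4% of all genes. The median was 0.63 against 0.09 over all genes. Of the 36, 4 were higher and 0 lower in females, where 11.0% of all genes passed in either direction. Oasl2, an oligoadenylate synthetase-like protein, stood at 23.4, 44.7 and 47.2 FPKM in females and at 14.3, 11.8, 13.2 and 12.1 FPKM in males, a difference of 1.45 ± 0.43 (adjusted p = 0.033). Oas2 stood at 6.87, 9.05 and 13.9 FPKM in females and at 3.48, 3.99, 3.62 and 3.92 FPKM in males, a difference of 1.15 ± 0.36 (adjusted p = 0.045). Ifit1 stood at 8.09, 15.0 and 15.7 FPKM in females and at 3.9, 3.67, 4.49 and 3.4 FPKM in males, a difference of 1.47 ± 0.47 (adjusted p = 0.047).

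For these 3 genes the sexes did not overlap. Zbp1 also passed, at 1.49 ± 0.48 (adjusted p = 0.049), with 25.0, 54.2 and 60.5 FPKM in females and 11.2, 11.0, 26.1 and 14.9 FPKM in males, where male replicate 3 lay above female replicate 1. In 17 of the 36 genes the sexes shared no value, all higher in females, where 26.0% of all genes had groups without overlap. In this comparison all same-numbered mice deviated together from their group means (correlations of 0.466, 0.205 and 0.612 for replicates 1, 2 and 3), and with the replicate number as a block 0 of the 4 calls held: the adjusted p was 0.058 for Oasl2, 0.08 for Oas2, 0.078 for Ifit1 and 0.081 for Zbp1. With only the groups compared in the fit 14 members passed, where 9.9% of all genes did. Each of the 4 calls was lost without female replicate 2 or 3 or male replicate 2 or 4. Without the 4 muscle-rich libraries all 4 calls were lost too. The adjusted p in limma was then 0.068 for Oasl2, 0.092 for Oas2, 0.078 for Ifit1 and 0.082 for Zbp1. Of the macrophage markers 6 of 12 were higher in females (sums of 1010 to 1700 FPKM against 436 to 906 FPKM). So were 5 of 8 mammary epithelium markers tested (sums over 9 markers of 239 to 730 FPKM against 0.24 to 3.22 FPKM). Of the adipocyte markers 3 of 8 were lower in females (median log2 difference of the 8, -0.647). The part of these cells was not tested.

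**Figure D5:**
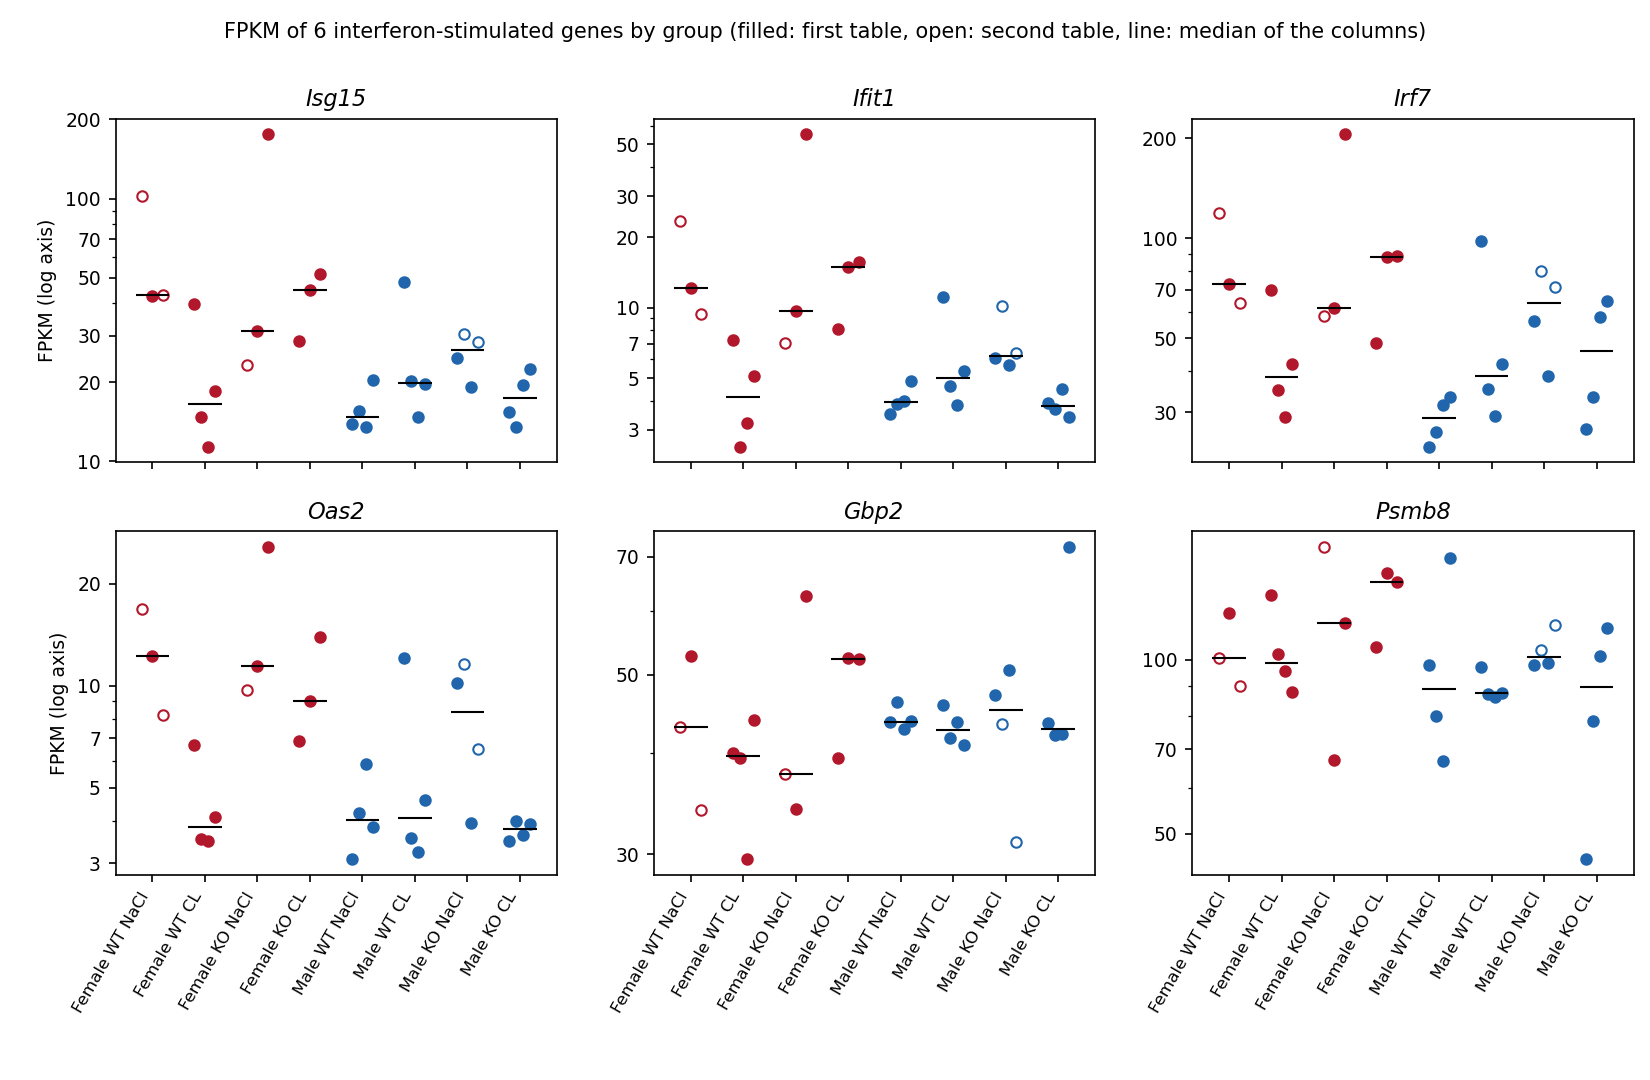
FPKM of Isg15, Ifit1, Irf7, Oas2, Gbp2 and Psmb8 by group on log axes, with 1 point per column (open for the second table) and a line at the median of the columns. In the panels of Isg15, Ifit1, Irf7 and Oas2 the top point is saline knockout female replicate 3, at 175, 55.0, 206 and 25.7 FPKM, and in those of Gbp2 and Psmb8 it is another column.

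A longer list of the interferon pathway (receptors, kinases, adaptors, transcription factors, further induced genes, antigen presentation and chemokines) held 120 other tested genes. In CL females 9 of the 120 (7.5%, against 12.6% of all genes) were higher in the knockout and 0 lower. The first 4 by p were Erap1, a peptidase that trims antigens (0.60 ± 0.13, adjusted p = 0.0095), Ifi204, a DNA sensor (1.55 ± 0.38, adjusted p = 0.014), the RNA receptor Tlr7 (1.05 ± 0.28, adjusted p = 0.021) and the kinase Tbk1 (0.49 ± 0.14, adjusted p = 0.028). Of 16 alternatives, the call was lost in 1 for Erap1, 3 for Ifi204, 3 for Tlr7 and 7 for Tbk1. Over all genes 1187 rose and 478 fell here, and under quantile normalization 553 rose and 551 fell. As given above, 9 of 12 macrophage and 5 of 6 stromal markers rose too, and their part was not tested.

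The chemokine genes Ccl7 and Ccl8, whose products attract monocytes, moved in males. Under CL, Ccl7 fell by 2.57 ± 0.55 (adjusted p = 0.007) and Ccl8 by 2.75 ± 0.65 (adjusted p = 0.013) in knockout males, together with Ifitm3 (-1.11 ± 0.27, adjusted p = 0.015) and Ifi204 (-1.74 ± 0.44, adjusted p = 0.018). Cxcl9 rose there (0.85 ± 0.25, adjusted p = 0.044), so that 1 of the 120 rose and 4 fell (4.17%, against 7.25% of all genes); the Cxcl9 call was lost in 14 of 17 alternatives (adjusted p of 0.022 to 0.48). In saline males Ccl8 was higher in the knockout than in the wild type (3.02 ± 0.65, adjusted p = 0.008), as were Ifi204 (1.83 ± 0.44, adjusted p = 0.015) and Ifitm3 (0.96 ± 0.27, adjusted p = 0.033), while Cd274 (PD-L1) was lower (-0.75 ± 0.21, adjusted p = 0.035). These 4 were 3.33% of the 120, against 7.34% of all genes. The Cd274 call was lost in 13 of 17 alternatives (adjusted p of 0.0097 to 0.62) and that of Ifitm3 in 9 of 17 (0.011 to 0.26). Under CL, Cd274 was also lower in knockout than in wild-type males (-0.76 ± 0.17, adjusted p = 0.021). Without the 4 muscle-rich libraries Ccl7, Ccl8, Ifi204 and Cxcl9 no longer passed for CL in knockout males, nor Ccl8, Ifi204 and Cd274 for the knockout in saline males. The CL comparison in knockout males and the knockout comparison in saline males share the saline knockout males.

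Of 9 receptor and kinase genes, 1 rose and 1 fell under CL in knockout females, and 2 were higher and 1 lower in females among saline knockout mice. Of all 120, 4 passed in the first of these comparisons (3.33%, against 7.42% of all genes) and 3 in the other (2.5%, against 7.77%). Under CL, knockout females had higher expression of the proteasome activator gene Psme2 (0.62 ± 0.16, adjusted p = 0.022), Ifnar2 (0.50 ± 0.13, adjusted p = 0.022) and the antigen-presenting H2-K1 (0.68 ± 0.19, adjusted p = 0.032) and lower Ifngr2 (-0.65 ± 0.17, adjusted p = 0.023) than under saline. All 4 calls were lost without the 4 muscle-rich libraries. In saline knockout mice Ifngr2 (0.64 ± 0.16, adjusted p = 0.016) and Ifnlr1 (0.80 ± 0.23, adjusted p = 0.037) were higher in females and Ifnar2 was lower (-0.48 ± 0.12, adjusted p = 0.016), and these calls too were lost without them (adjusted p = 0.065, 0.097 and 0.14).

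Between the sexes under CL, 2 of the 120 were higher and 8 lower in wild-type females (8.33%, against 17.9% of all genes), led by Irf2bp2 (0.44 ± 0.13, adjusted p = 0.026) and Ly6e (0.63 ± 0.21, adjusted p = 0.038) among the higher and by Erap1 (-0.58 ± 0.12, adjusted p = 0.0039), Gbp9 (-0.83 ± 0.22, adjusted p = 0.013), Tbk1 (-0.47 ± 0.13, adjusted p = 0.017) and Ifnar1 (-0.40 ± 0.12, adjusted p = 0.022) among the lower. In CL knockout mice 6 of the 120 passed (5.0%, against 11.0% of all genes): 5 were higher in females, led by Psme2 (0.58 ± 0.14, adjusted p = 0.012), Ifitm3 (0.88 ± 0.23, adjusted p = 0.019), Ifi204 (1.37 ± 0.38, adjusted p = 0.023) and Ccl7 (1.55 ± 0.47, adjusted p = 0.038; Ifi204 and Ccl7 at 0.058 and 0.068 without the muscle-rich libraries), and Cxcl9 was lower (-0.81 ± 0.22, adjusted p = 0.02). The Ly6e call was lost in 11 of 18 alternatives, and that of Ccl7 in 8 of 17. In limma, 0 of the 120 passed for CL in wild-type females (22 at an unadjusted p below 0.05), for CL in wild-type males (5), for the knockout in saline females (2) and for sex in saline wild-type mice (14).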

How the data were processed

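RNA sequencing of mouse subcutaneous white fat was deposited as 2 tables of FPKM per gene, which the authors made from reads of a DNBSEQ instrument. Alignment with HISAT2 2.0.4 to GRCm38 (mm10) is taken from the submitters' processing notes. For the program that gave the deposited FPKM values, name and annotation were not given in the sources used here. FPKM holds no counts, so the depth behind a value is unknown and no counting interval is given.

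The tables have 29 columns, which were matched by name to 29 sample records. A pair of names occurs in both tables, and their columns were averaged to 27 mice; 2 records matched no column. The deposited FPKM values were converted to log2(FPKM + 1), a scale that understates changes of low genes. Genes reaching 1 FPKM in 3 or more mice were kept. limma 3.58.1 (R 4.3.3) fitted the 8 group means with the table as a covariate, on 18 residual degrees of freedom, with a mean-variance trend. P-values were adjusted by the Benjamini-Hochberg method over the 13174 genes of each comparison, and a gene passed below 0.05. Errors after ± on log2 differences are standard errors. The fit was tested on simulated data: of genes changed by 1 log2 unit, 42% were called for CL in wild-type females and 88% for CL in wild-type males. Of those changed by 2 log2 units, 90% and 100% were called. No separate rates are given for the members, which varied more between columns (median ratio of 6.61 against 2.67). These rates therefore do not say how likely a change of a member was to be called.

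The members and gene lists were chosen with earlier results of these data known. Of each comparison, up to 6 members past the threshold per direction were named by smallest p, or the first 3 where fewer passed; of the other pathway genes, up to 4 per direction; 1 further gene of that rule is not reported here. Of same-numbered mice, 9 of 36 pairs deviated together (correlation above 0.1), and all pairs of a comparison did so only between the sexes in CL knockout mice; this pairing comes from the data, not from the labels. The alternatives were a pseudocount of 0.1, no filter, quantile normalization, no table covariate, 3 ways to treat repeated names and tables, only the groups compared, a replicate block and leaving out each mouse. Leaving out muscle-rich libraries, the column ratios without saline knockout female replicate 3 and the test of sex by treatment over both genotypes were added after the data were seen. Promoter sequences are from RefSeq (GRCm38.p6).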

Additional observations from a re-analysis of the deposited data

Results flagged for a closer look

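In groups of 4 mice, 13 of 144 combinations of member and group (9.03%) held a mouse far from the others; chance flags about 1 in 20 groups. The flags are not independent, since 8 of them fall in a single mouse, CL wild-type male replicate 1. There Irf9 stood at 27.4 FPKM (15.8 to 17.3 in the other 3 mice), Stat2 at 18.3 (9.93 to 10.4), Ifit2 at 12.2 (4.12 to 4.95), Cmpk2 at 12.4 (5.74 to 6.45), Rtp4 at 41.6 (15.8 to 18.7), Usp18 at 20.0 (5.82 to 6.99), Psmb8 at 97.2 (86.2 to 87.5) and Parp14 at 13.6 FPKM (7.54 to 7.91). In CL wild-type female replicate 1, Oas1a stood at 20.0 FPKM (7.53 to 8.84 in the others), Bst2 at 179.0 (122 to 128) and Ifi44 at 4.65 FPKM (1.57 to 1.87). Oas1a was at 12.0 FPKM in CL knockout male replicate 3 (8.14 to 8.47 in the others), and Gbp2 at 72.0 FPKM in CL knockout male replicate 4 (42.1 to 43.5), which is a muscle-rich library.

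The CL response of Ifi27l2a differed between the sexes in a test that was added after the values were seen. Averaged over both genotypes, the log2 difference in females minus that in males was 2.05 ± 0.33 (limma, adjusted p = 0.0098). The gene did not pass within either genotype alone, and the averaged call was lost in 2 of 37 alternatives.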

How the results depend on the processing

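The number of members called kept within 1.5 times its value in 244 of 292 alternatives. A count of 0 that stayed at 0 was taken as kept, and many comparisons had no member called. The share therefore does not measure how stable the calls were, and the counts that moved are given below. None of the named genes that passed a test reversed its direction. Genes that did not pass were not followed across the alternatives. Percentages in brackets below are the share of all genes that passed under the same setting. With no table covariate, 3 members passed for CL in wild-type females (11.8%) and 2 for CL in knockout males (12.0%). In that setting 2 passed for the knockout in saline males (11.4%) and 13 for sex in saline wild-type mice (9.94%). With every column as a mouse the counts were 6 for CL in wild-type females (15.7%) and 7 for sex in saline wild-type mice (4.89%). For sex in CL knockout mice the count was 2 (9.31%). With only the first-table column of repeated names the counts were 4 (17.0%), 4 (3.74%) and 1 (9.66%) in these comparisons. The first table alone held 1 saline wild-type female, so no count is given for that group under this alternative. With no filter 1 passed for sex in CL knockout mice (8.73%). Quantile normalization gave 0 for CL in wild-type males (11.0%), 0 for CL in knockout males (8.13%) and 0 for the knockout in CL females (8.38%). It gave 4 for sex in saline wild-type mice (3.24%) and 1 for sex in CL knockout mice (11.7%). With only the groups compared, 4 passed for CL in wild-type males (20.0%) and 0 for CL in knockout males (0.0%). For the knockout in CL females 1 passed (1.67%). For sex, 0 passed in saline wild-type mice (1.44%), 0 in saline knockout mice (1.37%) and 14 in CL knockout mice (9.9%). With the replicate block 1 passed for the knockout in CL females (8.18%) and 1 for sex in saline wild-type mice (3.34%). For sex in CL knockout mice 0 passed (8.85%), and the count of members called stayed the same in the other comparisons. Correlations of same-numbered mice ranged from -0.481 to 0.612. With few pairs per comparison they cannot tell whether same-numbered mice shared a cage or litter. Without the 4 muscle-rich libraries 0 passed for CL in knockout males (2.24%) and 2 for sex in CL knockout mice (9.31%). Oasl2, Oas2, Ifit1 and Zbp1 were not among those 2. Leaving out single mice gave 1 throughout for CL in wild-type males, 0 to 1 for CL in knockout males, 0 to 6 for the knockout in CL females, 0 to 2 for sex in saline wild-type mice, 0 to 1 for sex in saline knockout mice, 0 to 6 for sex in CL knockout mice, 0 to 1 for sex by treatment in the knockout and 0 to 1 for the same test over both genotypes, and 0 elsewhere. The causes of these changes were not tested. Saline wild-type females were 2 mice, with all but 1 of their columns in the second table, which holds saline mice only, so table and treatment are partly bound together there. Without counts, the precision of low genes such as Oas1g, Oas3 and Ifi44 is unknown.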
